A study of Homo sapiens with 9 samples.

Results

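The cGAS-STING DNA sensing pathway was followed through 9 genes, CGAS, ENPP1, STING1, TBK1, IKBKE, IRF3, IFI16, SAMHD1 and TREX1, in MDA-MB-231 cells depleted of the aryl hydrocarbon receptor (AhR). The rule names the genes by their known role in the pathway and uses no measured value, though it was set with earlier results of these data known, and they make up 9 of the 60649 genes in the count table. Of these 9 genes, 8 had enough reads to be tested. MDA-MB-231 is a long-established cell line from a triple-negative breast tumour, which lacks oestrogen and progesterone receptors and HER2 amplification. Cells carried the lentiviral control vector PLKO-GFP or either of 2 short hairpin RNA constructs against AHR, shAHR#2 and shAHR#3, with 3 libraries of messenger RNA in each of the 3 groups. These names are those of the labels, and the study numbers its hairpins otherwise elsewhere, so that shAHR#2 here need not be the hairpin of that number there. The labels give proliferation as the treatment in every group and name no other agent. By the study's methods, the infected cells were selected with puromycin, so each group is a selected population, not a clone. The comparisons ask how transcripts of the pathway stand when AHR is lowered by each construct, and where the constructs differ.

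As background, cGAS binds double-stranded DNA in the cytosol and makes the cyclic dinucleotide cGAMP. cGAMP binds STING on the endoplasmic reticulum, which moves to the Golgi and recruits the kinase TBK1, and TBK1 phosphorylates the transcription factor IRF3, which enters the nucleus and turns on interferon-beta and other genes. Much of this is controlled on proteins, through binding, phosphorylation and traffic, so that messenger RNA levels give the amounts of transcript for each component and not the activity of the pathway. Many tumour cells keep the sensor but hold little STING.

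The libraries held between 15991396 and 20374460 counted reads, and 14274 genes passed the filter on low counts. Levels are given in CPM, a gene's counts scaled to a common library size by TMM, and fold changes are log2 values from the edgeR quasi-likelihood fit over all 14274 genes, with the Benjamini-Hochberg adjusted p of that fit. A gene was called at an adjusted p under 0.05. AHR itself, the targeted gene, was at 118 ± 3.32 CPM (SD, n = 3) with PLKO-GFP, 41.6 ± 1.07 CPM with shAHR#2 and 47.7 ± 3.99 CPM with shAHR#3, which is 35.3% and 40.5% of the control level. Replicate pairs differed by more than counting error, with a chi-square per degree of freedom of 1.76 to 4.24. The labels number the replicates without saying that they are separate cultures, so the p-values measure the spread between these libraries, which may be technical. Of markers of mammary epithelial and other cells, KRT5, KRT14, PGR, CD3E and DCN had 3 counts or fewer in every library. Summed mesenchymal markers (4 genes) stood at 3562 to 3590 CPM with PLKO-GFP, 6379 to 6564 CPM with shAHR#2 and 5172 to 5218 CPM with shAHR#3, and summed epithelial markers (8 genes) at 896 to 946, 1044 to 1088 and 1216 to 1306 CPM. The sums were 1.598 to 1.874, 4.17 to 5.58 and 3.34 to 3.84 CPM for 5 leukocyte markers, 2.15 to 2.71, 10.3 to 12.7 and 12.04 to 13.33 CPM for 3 endothelial markers and 14.5 to 17.3, 14.1 to 15.6 and 28.1 to 31.3 CPM for 4 fibroblast markers, and the part of these shifts in the results below was not tested. Markers within a sum could differ in direction. With shAHR#2 the log2 fold changes were 0.67 for COL1A1, -2.05 for COL1A2 and -0.83 for PDGFRB. They were 3.45 for PTPRC, 2.46 for LYZ and -1.40 for CD14, and all of these were called. In bulk RNA, a change in the share of cells that express a gene and a change in its level per cell cannot be told apart.

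The members lie on 7 chromosomes, and the positions of GENCODE release 44 on GRCh38 are given with each gene below. RefSeq promoter windows (GRCh38.p14) of 250 bases before the transcript start were found for 6 of the 9 genes, as 7 windows. Both windows of IFI16, which start at 159008741 and 159009657, lie inside the gene, downstream of its GENCODE start at 158999968. The bases before that start were not searched. The letters GCGTG, the core of the element that AhR binds with its partner ARNT, were looked for on both strands, so that a match on the other strand reads CACGC. They were in 11313 of 35116 windows of all genes, or 32.2%, and in 3 of the 7 windows of the members, those of ENPP1, TBK1 and SAMHD1. The windows of ENPP1 (chr6:131807770-131808019, plus strand) and TBK1 (chr12:64451870-64452119, plus strand) are printed, since these genes had the largest rise and the largest fall among the members with shAHR#2. Capitals mark GCGTG or CACGC. A match describes these letters only and says nothing of binding.
ENPP1: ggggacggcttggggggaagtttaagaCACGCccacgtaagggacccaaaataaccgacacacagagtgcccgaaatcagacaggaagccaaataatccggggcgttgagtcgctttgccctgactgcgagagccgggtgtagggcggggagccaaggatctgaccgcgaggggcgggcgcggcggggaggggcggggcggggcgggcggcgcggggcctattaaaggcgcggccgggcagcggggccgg
TBK1: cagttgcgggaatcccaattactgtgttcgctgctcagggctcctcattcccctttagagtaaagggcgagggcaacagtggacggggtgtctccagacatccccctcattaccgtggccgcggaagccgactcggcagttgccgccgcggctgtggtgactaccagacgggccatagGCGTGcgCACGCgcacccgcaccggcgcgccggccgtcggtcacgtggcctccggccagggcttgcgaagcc

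CGAS, STING1, ENPP1 and IRF3 rose with both constructs, and TBK1 and IFI16 fell with both, while IKBKE and SAMHD1 fell with shAHR#2 and did not pass the test with shAHR#3. With shAHR#2, 8 of the 8 tested members were called, 4 higher and 4 lower, where 65.8% of all tested genes were called, 32.6% higher and 33.2% lower. With shAHR#3, 6 of 8 were called, 4 higher and 2 lower, beside 54.4% of all genes, 26.9% higher and 27.5% lower. So large a share of all genes was called that the members' counts do not set the pathway apart. Between the constructs, shAHR#3 against shAHR#2, 6 of 8 were called, 3 in each direction, beside 42.3% of all genes, 21.9% higher and 20.4% lower. The ranges of the 3 libraries did not overlap for 8 of 8 members with shAHR#2, 5 of 8 with shAHR#3 and 5 of 8 between the constructs, beside 68.2%, 58.7% and 49.6% of all genes. Both constructs were set against the same control libraries. The members' median log2 fold change was 0.04 with shAHR#2 and 0.05 with shAHR#3, beside medians of -0.003 and about 0 (-6.9e-05) over all genes.

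**Figure D1:**
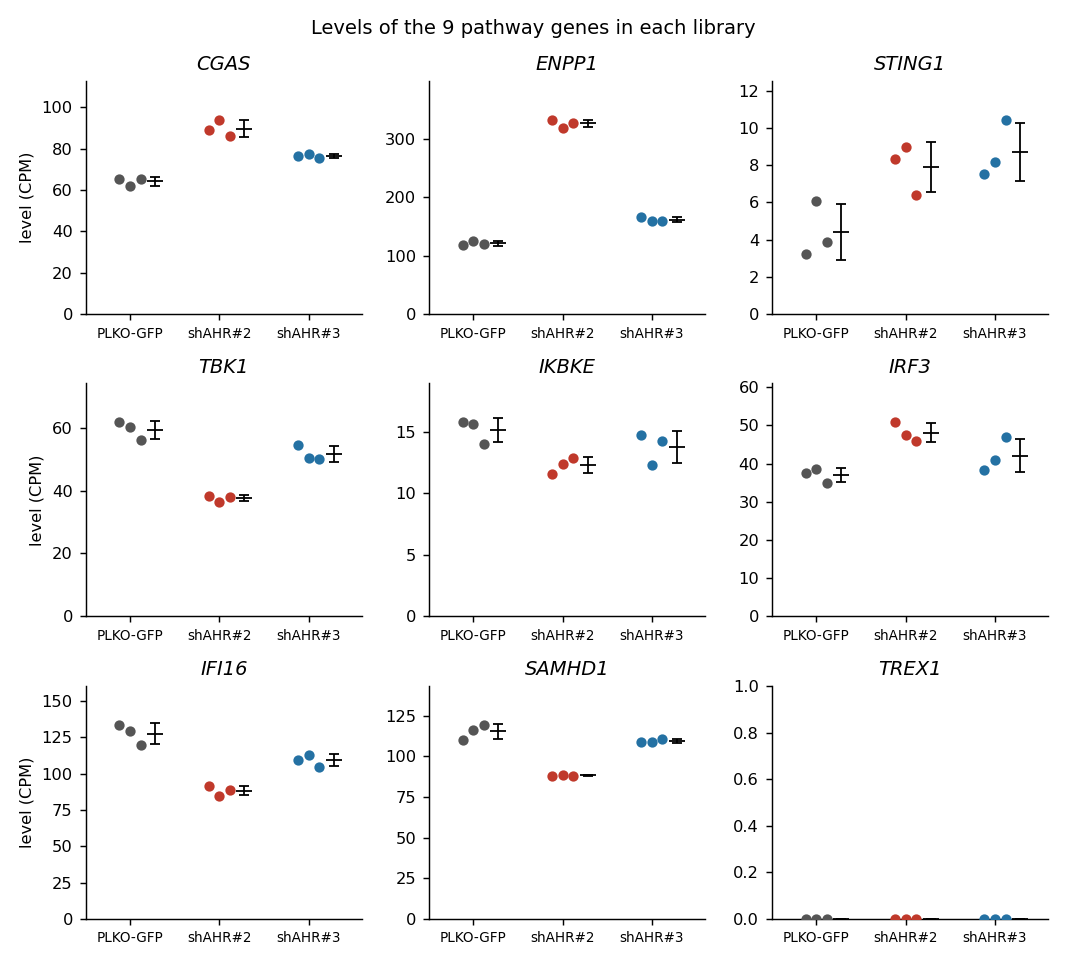
Level in CPM (vertical axis, from 0) of each of the 9 genes in each library (points, 3 per group), with the mean and SD of each group as a bar beside them. ENPP1 with shAHR#2 lies at 320 to 333 CPM, far above both other groups, STING1 stays under 11 CPM in all libraries, and TREX1 is at 0 throughout.

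CGAS (ENSG00000164430.17, chromosome 6, 73413515 to 73452297, minus strand) encodes the sensor that makes cGAMP. It stood at 65.3, 61.8 and 65.4 CPM in the PLKO-GFP libraries, at 89.0, 93.9 and 85.9 CPM with shAHR#2 and at 76.5, 77.5 and 75.3 CPM with shAHR#3. The 3 groups did not overlap, with the control lowest and shAHR#2 highest. The log2 fold change was 0.48 with shAHR#2 (SE 0.042, adjusted p = 1.2e-12 by edgeR) and 0.25 with shAHR#3 (SE 0.042, adjusted p = 3.3e-06 by edgeR), and the rise was smaller with shAHR#3 by 0.23 (SE 0.041, adjusted p = 1.6e-05 by edgeR). In CPM these are 140% and 119% of the control level.

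IFI16 (ENSG00000163565.19, chromosome 1, 158999968 to 159055155, plus strand) encodes a DNA-binding protein of the PYHIN family that acts beside cGAS, mainly in the nucleus. Its level was 134, 129 and 120.1 CPM with PLKO-GFP, 91.2, 84.9 and 88.8 CPM with shAHR#2 and 109.6, 113 and 105 CPM with shAHR#3. Each construct lay below the control with no overlap, and shAHR#2 lay lowest. It thus moved against CGAS: the log2 fold change was -0.53 with shAHR#2 (SE 0.041, adjusted p = 3.4e-14 by edgeR) and -0.23 with shAHR#3 (SE 0.039, adjusted p = 5.9e-06 by edgeR), with a difference of 0.30 between them (SE 0.041, adjusted p = 1.0e-07 by edgeR).

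ENPP1 (ENSG00000197594.14, chromosome 6, 131808016 to 131895155, plus strand) encodes the membrane hydrolase that breaks down cGAMP outside the cell. It showed the largest change of any member. The PLKO-GFP libraries were at 117, 126 and 119 CPM, the shAHR#2 libraries at 333, 320 and 327 CPM and the shAHR#3 libraries at 166, 159.9 and 159 CPM. The groups were far apart beside their SDs of 4.329, 6.627 and 3.902 CPM. The level was 2.70-fold that of the control with shAHR#2 (log2 1.43, SE 0.032, adjusted p = 7.4e-31 by edgeR) and 1.34-fold with shAHR#3 (log2 0.42, SE 0.033, adjusted p = 1.1e-13 by edgeR). At -1.01 on the log2 scale (SE 0.031, adjusted p = 1.3e-25 by edgeR), the difference of shAHR#3 from shAHR#2 was also the largest among the members. AHR itself was lower with shAHR#2 than with shAHR#3, by 0.19 on the log2 scale (adjusted p = 0.0028 by edgeR). The part of this in the ENPP1 difference was not tested.

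STING1 (ENSG00000184584.13, chromosome 5, 139475533 to 139482935, minus strand) encodes the receptor of cGAMP. It was the least abundant of the members with counts, with 57, 122 and 76 counts (3.22, 6.09 and 3.85 CPM) in the PLKO-GFP libraries. With shAHR#2 it had 155, 140 and 101 counts (8.31, 8.99 and 6.39 CPM), and with shAHR#3 146, 160 and 214 counts (7.51, 8.19 and 10.4 CPM). The highest control library lay just under the lowest shAHR#2 library, and both constructs lay above all control libraries while overlapping each other. The log2 fold change was 0.84 with shAHR#2 (SE 0.17, adjusted p = 4.4e-05 by edgeR) and 0.98 with shAHR#3 (SE 0.16, adjusted p = 2.8e-06 by edgeR), or 1.79-fold and 1.97-fold. Leaving out any single library kept both calls, over 0.668 to 1.155 and 0.81 to 1.30. Between the constructs the difference was 0.14 (95% interval -0.16 to 0.45, adjusted p = 0.476 by edgeR). With the spread between these libraries, neither an equal rise nor a difference within that interval can be told.

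STING1 also varied most from library to library. Its coefficient of variation within groups was 24.4%, where counting error alone gives 9.15% and the median of the 1487 genes with a mean count within a factor of 1.5 was 10.5%. That places it at percentile 98.7 of those genes. By group it was 34.4% with PLKO-GFP, 17.1% with shAHR#2 and 17.6% with shAHR#3. IRF3, with 7.31% against a median of 4.56% for genes of like counts, was the other member above percentile 90, and the remaining members lay between percentiles 23.7 and 85.6.

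TBK1 (ENSG00000183735.11, chromosome 12, 64452090 to 64502114, plus strand) encodes the kinase that STING recruits. Its libraries were at 61.7, 60.2 and 56.1 CPM with PLKO-GFP, 38.2, 36.4 and 38.0 CPM with shAHR#2 and 54.6, 50.3 and 50.1 CPM with shAHR#3. The 3 groups did not overlap. The log2 fold change was -0.66 with shAHR#2 (SE 0.053, adjusted p = 1.2e-13 by edgeR), which is 63.3% of the control level in CPM, and -0.20 with shAHR#3 (SE 0.049, adjusted p = 0.00075 by edgeR), or 87.0%. The fall was smaller with shAHR#3 by 0.46 (SE 0.054, adjusted p = 4.7e-09 by edgeR).

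IKBKE (ENSG00000263528.8, chromosome 1, 206470476 to 206496889, plus strand) encodes IKK-epsilon, the kinase most like TBK1. It stood at 15.8, 15.6 and 14.0 CPM with PLKO-GFP, 11.6, 12.4 and 12.8 CPM with shAHR#2 and 14.8, 12.3 and 14.2 CPM with shAHR#3. The shAHR#2 libraries lay below the control, and the shAHR#3 libraries overlapped both other groups. The log2 fold change was -0.30 with shAHR#2 (SE 0.093, adjusted p = 0.0046 by edgeR), while -0.14 with shAHR#3 did not pass (95% interval -0.32 to 0.04, adjusted p = 0.1999 by edgeR). Nor did the difference of the constructs, 0.17 (95% interval -0.02 to 0.36, adjusted p = 0.155 by edgeR), so the fall is not shown to be particular to shAHR#2.

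IRF3 (ENSG00000126456.16, chromosome 19, 49659569 to 49665875, minus strand) encodes the transcription factor that TBK1 activates. Its libraries were at 37.6, 38.5 and 34.9 CPM with PLKO-GFP, 50.8, 47.5 and 46.0 CPM with shAHR#2 and 38.3, 41.0 and 46.9 CPM with shAHR#3. All shAHR#2 libraries lay above the control, while the lowest shAHR#3 library lay within the control range and the highest within that of shAHR#2. The log2 fold change was 0.38 with shAHR#2 (SE 0.063, adjusted p = 1.7e-06 by edgeR) and 0.19 with shAHR#3 (SE 0.062, adjusted p = 0.010 by edgeR). The shAHR#3 call rested on single libraries: it was 0.15 (adjusted p = 0.0819 by edgeR) without PLKO-GFP replicate 3 and 0.10 (adjusted p = 0.173 by edgeR) without shAHR#3 replicate 3. The difference between the constructs, -0.19 (SE 0.061, adjusted p = 0.0095 by edgeR), was also lost without shAHR#2 replicate 1, at -0.15 (adjusted p = 0.0895 by edgeR), and without shAHR#3 replicate 1, at -0.13 (adjusted p = 0.114 by edgeR). Of the exonic bases of IRF3, 19.3% lie opposite BCL2L12, which had 373 to 545 counts and log2 fold changes of 0.18 and 0.22, both called. The strand setting of the counting is not given in the sources used here, so reads from that stretch cannot be assigned to either gene with certainty.

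SAMHD1 (ENSG00000101347.11, chromosome 20, 36890229 to 36951893, minus strand) encodes a hydrolase of deoxynucleotides that also helps to keep DNA fragments from leaving stalled replication forks. It was at 110.2, 116 and 119 CPM with PLKO-GFP, 88.1, 88.7 and 87.7 CPM with shAHR#2 and 108.6, 108.6 and 111 CPM with shAHR#3. The shAHR#2 libraries lay within 1 CPM of each other and far below the rest. The log2 fold change was -0.39 with shAHR#2 (SE 0.037, adjusted p = 1.1e-11 by edgeR) and -0.08 with shAHR#3 (95% interval -0.15 to -0.01, adjusted p = 0.0618 by edgeR), which did not pass over all genes. It passed without PLKO-GFP replicate 1, at -0.11 (adjusted p = 0.0178 by edgeR), and without shAHR#3 replicate 3, at -0.09 (adjusted p = 0.0489 by edgeR). The constructs differed by 0.31 (SE 0.037, adjusted p = 7.5e-09 by edgeR).

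TREX1 (ENSG00000213689.14, chromosome 3, 48465811 to 48467645, plus strand) encodes the exonuclease that degrades cytosolic DNA. It was listed at 0 counts in all 9 libraries and was not tested. All 1448 of its exonic bases are also exonic bases of ATRIP on the same strand, and ATRIP had 191 to 359 counts, with log2 fold changes of -0.36 with shAHR#2 (SE 0.095, adjusted p = 0.0012 by edgeR) and -0.30 with shAHR#3 (SE 0.092, adjusted p = 0.0061 by edgeR). How reads shared by the pair were assigned is not given in the sources used here. A count of 0 allows up to 0.193 CPM of reads assigned to TREX1, for counting error only, and does not limit the level of its transcript.

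**Figure D2:**
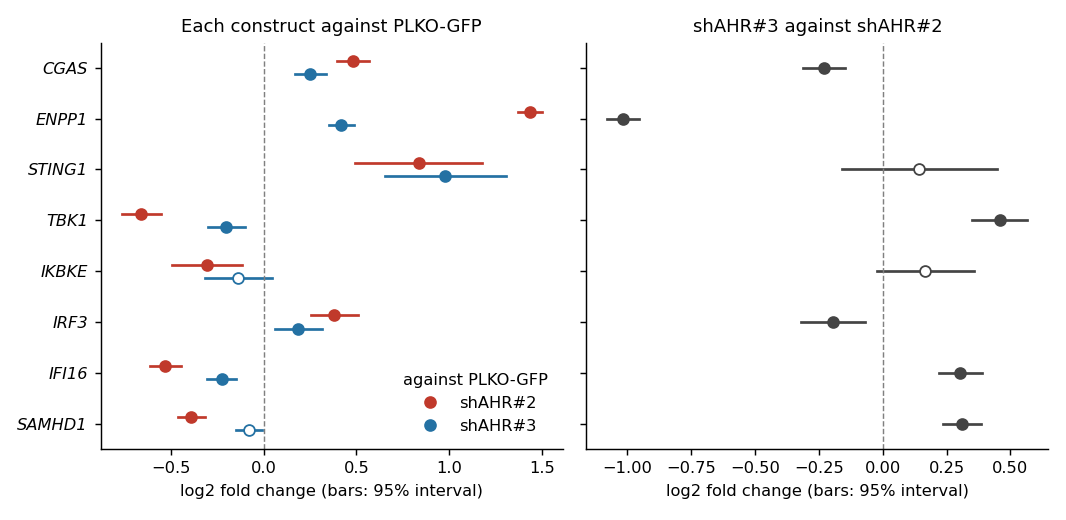
Log2 fold change (horizontal axis) of the 8 tested genes with its 95% interval, each construct against PLKO-GFP on the left and shAHR#3 against shAHR#2 on the right. Filled points passed an adjusted p of 0.05 and open points did not, and on the left the shAHR#2 point lies further from 0 than the shAHR#3 point for each gene but STING1.

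Of the 6 members whose changes differed between the constructs by the test, all 6 were nearer to the control with shAHR#3 than with shAHR#2. STING1 and IKBKE were the 2 for which no difference between the constructs was detectable.

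Levels can be compared between genes only per length, here as CPM per kilobase of exon, over the merged exons of all annotated transcripts of a gene. Among the genes with counts these lengths run from 3791 bases for IKBKE to 14716 bases for TBK1. Which transcripts the cells use was not determined, so the order below depends on the annotation. Before this division, TBK1 stood at 59.3 CPM and IKBKE at 15.1 CPM in the control. In the control, IFI16 was highest at 24.1 ± 1.31 (SD, n = 3), followed by CGAS at 15.4 ± 0.492, SAMHD1 at 10.6 ± 0.429, ENPP1 at 10.6 ± 0.379 and IRF3 at 9.75 ± 0.486. TBK1 at 4.03 ± 0.197, IKBKE at 3.99 ± 0.251 and STING1 at 0.914 ± 0.315 followed. SAMHD1 and ENPP1 overlapped over libraries, as did TBK1 and IKBKE. With shAHR#2 the order opened with ENPP1 at 28.6 ± 0.580 and CGAS at 21.5 ± 0.971, ahead of IFI16 at 16.7 ± 0.598. With shAHR#3 it kept IFI16 first, at 20.6 ± 0.789, then CGAS at 18.3 ± 0.256 and ENPP1 at 14.2 ± 0.342. STING1 stayed last with either construct, at 1.65 ± 0.281 and 1.82 ± 0.321.

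**Figure D3:**
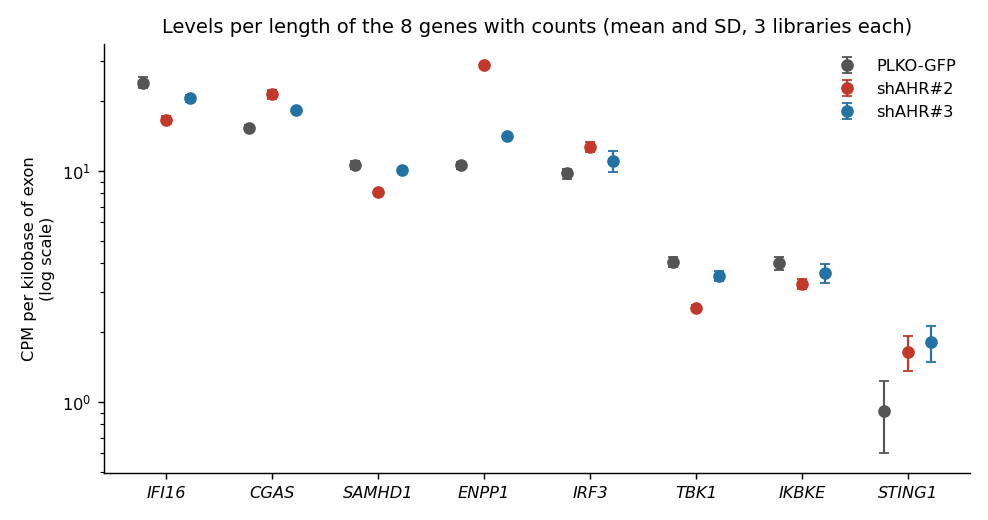
CPM per kilobase of exon (vertical axis, log scale) of the 8 genes with counts, as the mean and SD of 3 libraries for each group. ENPP1 moves from the middle of the order with PLKO-GFP (10.6) to its top with shAHR#2 (28.6), while STING1 is lowest in each group (0.914, 1.65 and 1.82).

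The genes whose log2 CPM followed that of CGAS most closely over the 9 libraries, among 11833 genes compared, were ZNF429 (Pearson r = 0.994), TRMT10C (0.994) and RAB5A (0.992). For STING1 they were PLEKHA6 (0.966), RPL4 (0.965) and SBNO2 (0.964). The 9 libraries come from 3 groups, so these values are a description of how group levels line up.

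STING1, TBK1 and CGAS had changes opposite in sign to the median of the tested genes near them on the chromosome, with both constructs. Among the 70 tested genes that start within 2 Mb of STING1, the median log2 fold change was -0.40 with shAHR#2 and -0.18 with shAHR#3, and 46 and 27 of them were called lower against 6 and 8 called higher. Only 2 of the 70, SPOCK1 and KLHL3 (named after their values were seen), rose more than STING1 with either construct. Over all 655 other tested genes of chromosome 5, the medians were -0.48 and -0.26, and 18 and 11 genes rose more than STING1. All 21 tested genes within 2 Mb of TBK1 had a higher log2 fold change than TBK1 with shAHR#2, and 18 of them with shAHR#3, and their medians were 0.29 and 0.20. The 793 other genes of chromosome 12 had medians of 0.22 and 0.17.

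The genes within 2 Mb of SAMHD1 and IFI16 were lower in the median, as those members were. The 48 genes around SAMHD1 had medians of -0.36 and -0.17, beside the member's own -0.39 and -0.08, so that with shAHR#3 their median lay below SAMHD1 and outside its 95% interval, and the 381 other genes of chromosome 20 had medians of -0.31 and -0.14. The 18 genes around IFI16 had medians of -0.41 and -0.18, but -0.10 and 0.0011 within 5 Mb, the latter with a spread over libraries of 0.034. The 32 genes around IKBKE had medians of -0.42 and -0.05. Beside each, the 1437 other genes of chromosome 1 had medians of -0.03 and -0.02. For IRF3, 78 genes had medians of 0.17 and 0.15, the 11 genes around CGAS had -0.10 and -0.09, and the 11 around ENPP1 had 0.20 and 0.12, with 1 and 4 of these above ENPP1. The 1032 other genes of chromosome 19 had medians of 0.11 and 0.10. On chromosome 6, which holds CGAS and ENPP1, the 708 other genes had -0.06 and -0.06. Within 1 Mb of ENPP1 the median was -0.055 with shAHR#2, with a spread over libraries of 0.145. There, 0 of 6 genes lay above ENPP1 with either construct. The part of shifts shared along a chromosome in the members' changes was not tested.

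**Figure D4:**
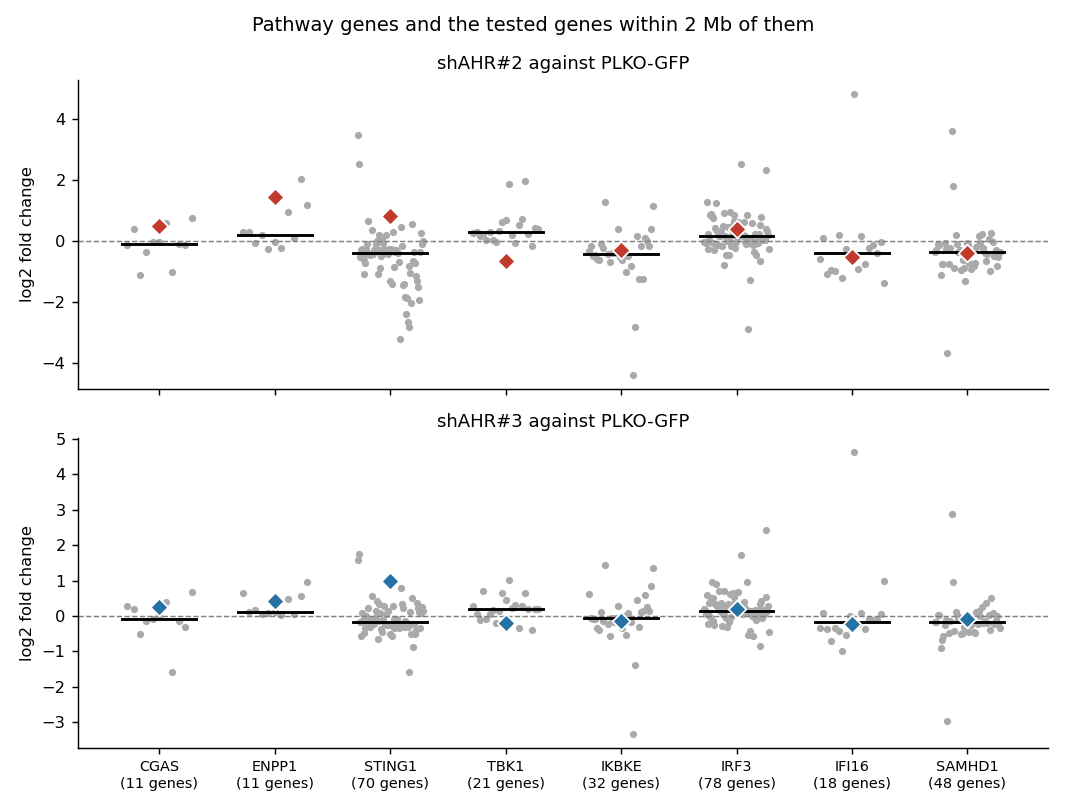
Log2 fold change (vertical axis) of each tested member (diamond) and of the tested genes that start within 2 Mb of it (grey points), with their median as a bar, for shAHR#2 (top) and shAHR#3 (bottom) against PLKO-GFP. STING1 lies above nearly all of its 70 neighbours and TBK1 below all of its 21 neighbours with shAHR#2.

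Around the members, 122 further genes in 7 lists cover sensors, cGAS partners, nucleases, cGAMP transport, STING traffic, the TBK1 complex and pathway outputs, and 102 of them were tested. With shAHR#2, 32 were higher and 44 lower, and with shAHR#3, 32 were higher and 31 lower. Their shares called, 74.5% and 61.8%, compare with the 65.8% and 54.4% of all genes given above, and their median log2 fold changes were -0.06 and 0.002. The genes named below are those with the largest mean change among genes that both constructs moved the same way by the test, and those they moved in opposite directions. Of all tested genes, 44.5% had calls of equal direction for the 2 constructs and 2.03% had calls of opposite direction, and the shared control libraries tie these calls together.

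Among 11 other sensors of DNA that were tested, 3 were higher and 6 lower with shAHR#2, and likewise 3 and 6 with shAHR#3. LRRFIP1, a nucleic acid binding protein, had log2 fold changes of 0.34 and 0.30 with shAHR#2 and shAHR#3, and the helicase DHX36 had 0.31 and 0.14. AIM2, the inflammasome sensor, had -0.94 and -0.70 at 16 to 50 counts, and RAD50, of the MRE11 complex, had -0.95 and -0.46. These 8 values passed the test, though the fall of RAD50 with shAHR#3 was -0.24 (adjusted p = 0.207 by edgeR) without PLKO-GFP replicate 1, and DHX36 with shAHR#3 was lost without PLKO-GFP replicate 3, at 0.11 (adjusted p = 0.0662 by edgeR).

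Of 11 cGAS partners and restraints, 2 were higher and 5 lower with shAHR#2, and 3 higher and 5 lower with shAHR#3. ZCCHC3, which helps cGAS to bind DNA, fell by 0.81 and 0.27 on the log2 scale with shAHR#2 and shAHR#3, and TFAM, which packs mitochondrial DNA, fell by 0.42 and 0.30. SMARCAL1, a remodeller at stalled forks, was higher by 0.28 and 0.19, and HMGB1 by 0.08 and 0.11. The SMARCAL1 call with shAHR#3 was lost without PLKO-GFP replicate 3 (0.12, adjusted p = 0.2104 by edgeR) and without shAHR#3 replicate 3 (0.16, adjusted p = 0.0771 by edgeR).

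Among the nucleases, all 3 subunits of RNase H2, which removes ribonucleotides from DNA, fell with both constructs: RNASEH2A by 0.36 and 0.28 on the log2 scale, RNASEH2B by 0.84 and 0.42, and RNASEH2C by 0.66 and 0.45. RNASEH1 fell too, by 0.54 and 0.44, and it and RNASEH2A were named after their values were seen. RNASEH2B stood at 32.7 to 39.8 CPM with PLKO-GFP, 19.3 to 20.9 CPM with shAHR#2 and 26.1 to 27.2 CPM with shAHR#3. Of the 11 tested genes in this list, 3 were higher and 6 lower with shAHR#2, and 3 higher and 5 lower with shAHR#3. Among the higher were FEN1, which trims DNA flaps (0.12 and 0.12), and ADAR (0.10 and 0.16). ADAR, also placed in this list, edits double-stranded RNA and is not a nuclease.

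Of the genes of cGAMP transport and breakdown, 6 of 10 were higher and 2 lower with shAHR#2 and 4 higher and 0 lower with shAHR#3. LRRC8C, a subunit of the volume-regulated channel that passes cGAMP, stood at 48.2 to 49.4 CPM with PLKO-GFP, 106 to 111 CPM with shAHR#2 and 69.0 to 73.3 CPM with shAHR#3, a log2 fold change of 1.14 and 0.54. Other subunits of that channel, named after their values were seen, differed in direction. LRRC8B was called higher with both constructs, at 0.57 and 0.30. LRRC8A (-0.27) and LRRC8D (-0.56) fell with shAHR#2, and their values of -0.005 and 0.06 with shAHR#3 did not pass. LRRC8E did not pass with either construct (0.11 and -0.03). SLC19A1, a cGAMP importer, had 0.85 and 0.86 at 16 to 54 counts. Its calls were lost without shAHR#2 replicate 3 (0.64, adjusted p = 0.0957 by edgeR) and without shAHR#3 replicate 3 (0.51, adjusted p = 0.197 by edgeR).

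In the list of STING traffic and turnover, 9 of 26 were higher and 11 lower with shAHR#2, and 7 higher and 8 lower with shAHR#3. ATG9A, an autophagy protein that restrains STING, was higher by 0.72 and 0.46, and STEEP1, which helps STING to leave the endoplasmic reticulum, was lower, at -0.69 and -0.58. ZDHHC1 had -0.84 and -0.59, and the second value did not pass without PLKO-GFP replicate 3 (adjusted p = 0.0728 by edgeR) or shAHR#3 replicate 1 (adjusted p = 0.0995 by edgeR). USP18, itself an interferon-stimulated gene, had 0.65 and 1.08 at 18 to 53 counts. Its call with shAHR#2 was lost with DESeq2 (adjusted p = 0.0637) and without any of 4 libraries, PLKO-GFP replicates 1 and 3 and shAHR#2 replicates 1 and 3 (adjusted p = 0.0702 to 0.0899 by edgeR). In the TBK1 and IRF complex, 6 of 23 were higher and 9 lower with shAHR#2, and 3 higher and 6 lower with shAHR#3. There IKBKB (0.52 and 0.26) and the adaptor TRAF3 (0.47 and 0.20) rose, and the deubiquitinases OTULIN (-0.40 and -0.45) and CYLD (-0.25 and -0.29) fell.

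Interferon genes, the end of the pathway, were not detected. IFNB1, the interferon-beta gene, and IFNA1, IFNA2, IFNE, IFNL2 and IFNL3 had 0 counts in all 9 libraries, which allows a level of up to 0.193 CPM in the shallowest library, and IFNL1 had 0 or 1. CXCL10, a chemokine induced by interferon, had 0, 1 and 1 counts with PLKO-GFP, 2, 0 and 0 with shAHR#2 and 3, 4 and 5 with shAHR#3. CCL5 had 0 counts in the PLKO-GFP libraries, 1, 1 and 2 with shAHR#2 and 1, 3 and 0 with shAHR#3. At this depth no fold change can be given for either.

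Of the 23 listed outputs, 10 interferon-stimulated genes could be tested. With shAHR#2, 3 were higher and 5 lower, beside 32.6% and 33.2% of all tested genes. With shAHR#3, 9 were higher and 1 lower, beside 26.9% and 27.5%. In the direct comparison of the constructs, 9 were higher and 1 lower with shAHR#3, beside 21.9% and 20.4% of all tested genes. IFIT1, whose protein binds foreign RNA, stood at 65.7 to 67.3 CPM with PLKO-GFP, 40.0 to 47.0 CPM with shAHR#2 and 85.1 to 95.5 CPM with shAHR#3. Its log2 fold change was -0.61 with shAHR#2 and 0.43 with shAHR#3, a difference of 1.03 (SE 0.050, adjusted p = 2.4e-19 by edgeR). IFIT3 (-0.42 and 0.42), IFIH1, the RNA sensor MDA5 (-0.56 and 0.41), and IFIT2 (-0.19 and 0.47) were likewise called in opposite directions.

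OASL (0.67 and 1.39) and IFI44 (1.24 and 0.89) rose with both constructs, and HERC5, the ligase for ISG15, fell with both (-1.01 and -0.19). ISG15 was at 11.4 to 14.1 CPM with PLKO-GFP, 12.2 to 12.7 CPM with shAHR#2 and 16.3 to 19.1 CPM with shAHR#3. Its log2 fold change was -0.01 with shAHR#2 (adjusted p = 0.916 by edgeR) and 0.53 with shAHR#3 (SE 0.089, adjusted p = 4.0e-06 by edgeR). MX1 was called with shAHR#3 at 0.29, a call that DESeq2 did not give (adjusted p = 0.0798) and that was lost without PLKO-GFP replicate 2 (0.21), PLKO-GFP replicate 3 (0.29) or shAHR#3 replicate 2 (0.26). ISG20 rose by 0.73 and 1.18, and its difference of 0.45 between the constructs was lost with DESeq2 (adjusted p = 0.07496) and without shAHR#2 replicate 1, shAHR#2 replicate 3 or shAHR#3 replicate 1 (0.34 to 0.45).

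**Figure D5:**
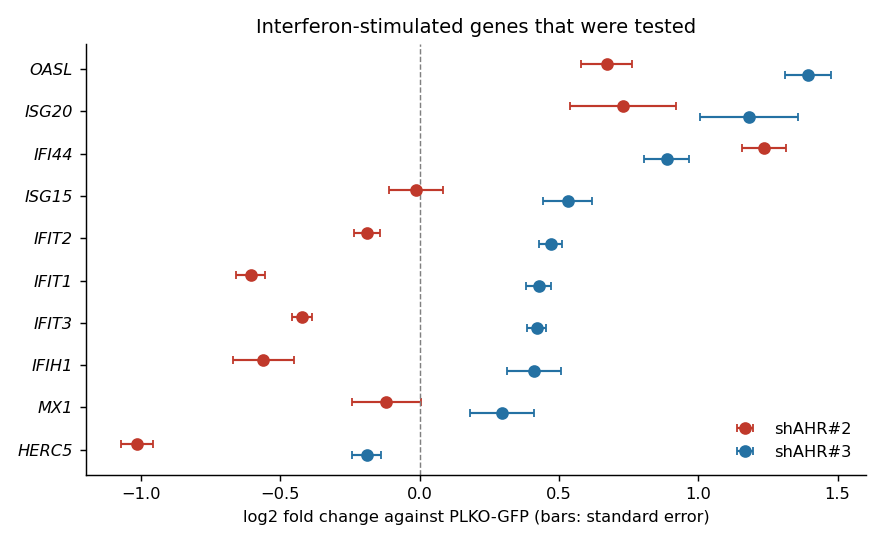
Log2 fold change against PLKO-GFP (horizontal axis, bars are standard errors) of the 10 interferon-stimulated genes that were tested, for shAHR#2 (red) and shAHR#3 (blue). For 9 of the 10 genes, all but IFI44, the shAHR#3 value lies to the right of the shAHR#2 value, and IFIT1, IFIT2, IFIT3 and IFIH1 lie on opposite sides of 0.

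Of the targets by which AhR activity is read, CYP1A1 had a log2 fold change of -2.47 with shAHR#2 and -1.23 with shAHR#3, both called, at 10 to 97 counts. CYP1B1, another such target, named after its values were seen, had -2.65 and -0.44, both called, and was higher with shAHR#3 than with shAHR#2 by 2.21 (SE 0.044, adjusted p = 4.0e-31 by edgeR). TIPARP had 0.04 with shAHR#2 (adjusted p = 0.344 by edgeR) and -0.18 with shAHR#3 (adjusted p = 0.000245 by edgeR). From shAHR#2 to shAHR#3, CYP1A1 was higher by 1.24 (adjusted p = 0.000725 by edgeR) and TIPARP was lower by 0.22 on the log2 scale (a difference of -0.22, adjusted p = 2.1e-05 by edgeR).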

How the data were processed

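Messenger RNA was sequenced from MDA-MB-231 cells with PLKO-GFP, shAHR#2 or shAHR#3, with 3 libraries per group. The study prepared stranded messenger RNA libraries from 500 ng of total RNA. The authors deposited raw read counts for each gene, as whole numbers that had not been normalized. The submitters' processing notes name FastQC, STAR, featureCounts, Subread and the build GRCh38.p13. The annotation release and the strand setting are not given in the sources used here, so counts of overlapping genes are uncertain. All 9 count columns were used.

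Everything after the counts was computed anew in R 4.3.3 with edgeR 4.0.16, limma 3.58.1 and DESeq2 1.42.0. Genes were kept by filterByExpr (minimum count 10, minimum total count 15) and scaled by TMM. A single quasi-likelihood fit held all 9 libraries and estimated 1 mean for every group, and p-values were adjusted by Benjamini-Hochberg over all 14274 genes tested. DESeq2, which the study used, was an alternative. The others were DESeq2 size factors in edgeR, no filter, a mean of at least 50 counts, a fit of the compared groups alone, replicate number added as a block, each library left out, an adjusted p under 0.01, an absolute log2 fold change of at least 1, and windows of 1 and 5 Mb around the members. Positions and exonic lengths are those of GENCODE release 44, in which 60463 of 60649 identifiers were found. Intervals and limits for a count of 0 (3 counts) cover counting error only.

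Counts were also simulated for 14274 genes from each gene's mean level over all 9 libraries. In the shAHR#2 libraries, 100 genes were given a log2 change of 0.5 and 100 a log2 change of 1. For shAHR#2 against PLKO-GFP, edgeR found 81 and 88 of these, with 9 false calls. Far fewer genes were changed there than were called in the data, and the spread followed only the trend over genes. These rates therefore need not hold for the data.

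The members and lists were chosen with earlier results of these data known. The genes named were all members and, of each list, up to 2 genes with the highest and 2 with the lowest mean log2 fold change among those that both constructs moved the same way by the test, those moved in opposite directions, the genes that the study measured (IFNB1, CXCL10, CCL5, ISG15, AHR, CYP1A1, TIPARP) and the 3 genes most like CGAS and STING1 (average log2 CPM of at least 1). Other genes are named as chosen after their values were seen or as members of a complex or overlapping pair. A motif of interferon-stimulated response elements was also searched in the promoter windows and is not reported here.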

Additional observations from a re-analysis of the deposited data

Results flagged for a closer look

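For 6 members the change differed between the constructs by a test of the difference itself, shAHR#3 minus shAHR#2 in the edgeR fit over all genes with Benjamini-Hochberg adjustment. On the log2 scale the difference was -1.01 for ENPP1, -0.23 for CGAS, -0.19 for IRF3, 0.46 for TBK1, 0.31 for SAMHD1 and 0.30 for IFI16. In each of the 6 the shAHR#3 libraries lay nearer to PLKO-GFP on average, and for IRF3 the ranges of the 2 constructs overlapped. Such a difference was called for 42.3% of all tested genes. Over all tested genes the median absolute log2 fold change was likewise smaller with shAHR#3 (0.23) than with shAHR#2 (0.32).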

How the results depend on the processing

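Of 384 log2 fold changes of members under the alternatives, 376 kept their direction and their side of the threshold, 5 were no longer called, 2 were newly called and 1 turned. Some of these alternatives left out a library of the group not compared, which bears on a fold change only through the shared fit. The turned value was STING1 in shAHR#3 against shAHR#2, at -0.011 with shAHR#3 replicate 3 left out, over a range of -0.011 to 0.24 when single libraries were left out. The 7 changed calls were those of IRF3 and SAMHD1 given above with libraries left out, and IRF3 with shAHR#3 under an adjusted p of 0.01. Among other named genes, 1239 of 1270 values stayed, 29 were no longer called and ISG15 with shAHR#2 turned, to 0.080 when PLKO-GFP replicate 2 was left out and 0.0098 when shAHR#2 replicate 1 was, over a range of -0.079 to 0.080. Requiring an absolute log2 fold change of at least 1 left, for shAHR#2, shAHR#3 and shAHR#3 against shAHR#2 in that order, 1691, 961 and 530 of all genes (9390, 7771 and 6031 without it), 1, 0 and 1 of the members (8, 6 and 6) and 3, 3 and 1 of the other pathway genes (76, 63 and 53), as the rule's own construction leads to. With single libraries left out, the members called ranged over 8, 5 to 7 and 5 to 6.

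With the replicate block, 9406, 7844 and 6107 genes, 76, 65 and 53 other pathway genes and 8, 6 and 6 members were called, and no call of a member changed. Same-numbered libraries of different groups correlated in their deviations at -0.05 to 0.08, and 6 of 9 libraries correlated best with their own number. The labels do not say whether same-numbered libraries share a batch.

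With 1 Mb in place of 2 Mb, the median log2 fold change of the genes around a member was -0.023 for CGAS, -0.055 for ENPP1, -0.30 for STING1, -0.49 for IKBKE, 0.10 for IRF3 and -0.39 for SAMHD1 with shAHR#2, and -0.12 for STING1, -0.11 for IKBKE, -0.18 for SAMHD1 and -0.42 for IFI16 with shAHR#3. With 5 Mb it was 0.11 for ENPP1, -0.48 for IKBKE and -0.10 for IFI16 with shAHR#2, and 0.076 for ENPP1, -0.15 for IKBKE and 0.0011 for IFI16 with shAHR#3. The cause was not tested. The other 16 of 32 such medians stayed within the spread between libraries. STING1 (57 to 214 counts) is limited by its spread between libraries, 24.4% where counting error gives 9.15%. Depth leaves the interferon and chemokine genes without a test.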
